A study of Arabidopsis thaliana with 9 samples.

Results

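The nuclear genes for the photosystem cores and the electron transport chain of the chloroplast were followed in young plants of Arabidopsis thaliana, a flowering weed used as a model. The set holds 32 of the 33323 genes listed in the count tables, chosen by gene identifier and function. It comprises 12 genes for subunits of photosystem I, 10 for subunits of photosystem II, 7 for electron carriers and 3 for subunits of the chloroplast ATP synthase, and leaves out the light-harvesting antenna and Rubisco small subunit genes. All 32 passed the filter on low counts that left 20672 genes for testing. The plants were 2-week-old seedlings on MS medium, a standard plant salt medium, and the labels name no stress treatment. There were 3 genotypes with 3 libraries each: Col-0 as wild type (WT), the mutant atrzf1, and a suppressor line of that mutant, pca31. The design text asks whether AtRZF1 and RGL1 act on target genes in opposite directions. The labels do not say which alleles pca31 carries, whether seedlings were pooled, what the replicate numbers 1 to 3 mark, or whether libraries of a genotype came from separate cultures. Hence a p-value here covers no more than how these libraries differ, which may be technical.

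In oxygenic photosynthesis, photosystem II takes electrons from water and passes them through the cytochrome b6f complex and the copper protein plastocyanin to photosystem I, which reduces ferredoxin. Ferredoxin-NADP reductase then makes NADPH, while the proton gradient drives the chloroplast ATP synthase. The reaction centre proteins themselves are encoded in the chloroplast genome, which was not analysed here, and the nuclear genome supplies the surrounding subunits, several of them from duplicated genes.

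Libraries held 22478803 to 33073605 counts. AtRZF1, a RING finger protein gene that names the mutant, was at 26.8 ± 3.68 CPM (counts scaled to library size, SD, n = 3) in the WT libraries, at 3.0 ± 1.39 in the atrzf1 libraries and at 2.29 ± 1.03 in the pca31 libraries, which matched the labels. Libraries stood apart by replicate number. The 3 number 3 libraries carried 1631 to 2421 CPM summed over 17 root markers, against 23.6 to 160 CPM in the other 6. In number 1, 4 of the 17 root markers (CASP4, CASP5, EXPA7 and RHD6) were at 0 in all 3 libraries, in number 2 it was 7 (CASP2, PHT1;1 and EXPA18 as well), and in number 3 none was at 0. Over 5 leaf markers the sums were 16989 to 20772 CPM in number 1, 15341 to 23376 in number 2 and 7472 to 9289 in number 3. Over 9 floral markers the sums were 8.07 to 12.9 CPM in WT, 19.3 to 65.5 in atrzf1 and 17.6 to 53.4 in pca31, with no floral marker at 0 throughout a group.

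**Figure D1:**
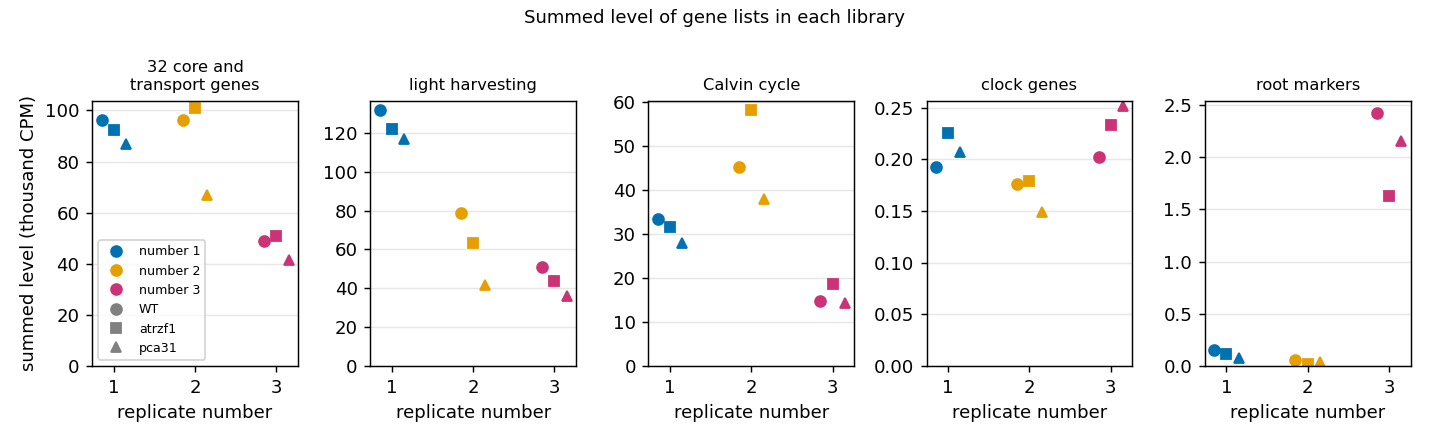
Summed expression of the 32 genes and of 4 gene lists in each of the 9 libraries, in units of 1000 CPM on linear axes from 0, with 1 point per library, by replicate number (colour) and genotype (shape). Root marker sums lie between 1631 and 2421 CPM for number 3 and reach at most 160 CPM elsewhere, and the 32 genes together are lowest in number 3.

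The photosystem and electron transport genes were among the most counted transcripts of these seedlings. The 32 genes took 8.77, 8.78 and 8.55% of all counts in the WT, atrzf1 and pca31 libraries of number 1, 7.90, 8.31 and 7.0% in number 2, and 5.56, 5.97 and 5.17% in number 3. All 3 number 3 libraries were below the other 6, and the pca31 library was the lowest of each number. By mean CPM, a count not divided by transcript length, 9 of the 32 were among the 50 highest genes, 17 among the 100 highest and all 32 among the 1000 highest. PSBR, a small photosystem II subunit, was the highest of the set and rank 5 of all genes, and PSBY, another small membrane subunit of photosystem II, was the lowest at rank 759.

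**Figure D2:**
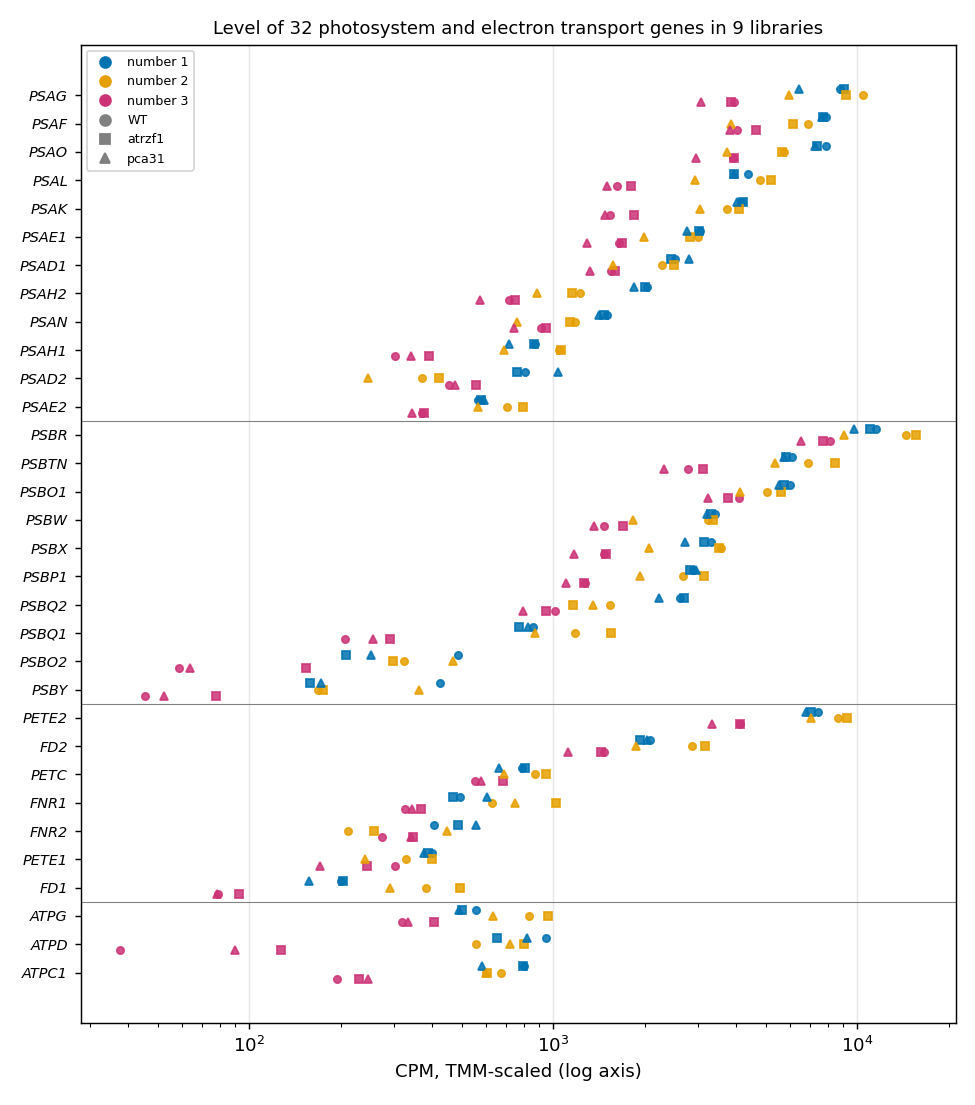
Expression of the 32 genes in each library, in CPM on a log axis, by role and gene, with 1 point per library marked by genotype and replicate number. For ATPD the 3 number 3 points lie below the other 6, and it spans the widest range, from 37.6 to 947 CPM.

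Between genotypes, which is the comparison the study was made for, no photosystem, carrier or ATP synthase gene passed the threshold of an adjusted p of 0.05. In edgeR's quasi-likelihood test 0 of 32 were called in each of the 3 contrasts, against 0% of all tested genes for atrzf1 against WT and 0.00484% for each of pca31 against atrzf1 and pca31 against WT. At an unadjusted p under 0.05 it was also 0 of 32 in each contrast, and DESeq2 and limma-voom called 0 of 32. The edgeR fit with genotype alone also did not call AtRZF1, at -3.16 ± 0.46 in atrzf1 against WT and -3.55 ± 0.46 in pca31 against WT (log2 fold change). With the replicate number as a block, edgeR called AtRZF1 in both (adjusted p = 0.001125 and 0.000194). Hence 0 of 32 in the fit with genotype alone does not show that the genotypes were alike. With the replicate number as a block, edgeR called 0 of 32 in each contrast, where it called 0.0339, 0.00484 and 0.0435% of all genes in the same order, and 0, 9 and 7 of the 32 were at an unadjusted p under 0.05, beside 771, 914 and 1745 of the 20672 tested genes. With the block and library totals these counts were 0, 3 and 3 of the 32, beside 741, 1438 and 2708 of the 20672 tested genes. With the block and DESeq2 they were 1, 17 and 10 of the 32, beside 710, 931 and 1708 of the 20672. The median log2 fold change of the 32 genes was 0.02 for atrzf1 against WT, -0.28 for pca31 against atrzf1 and -0.23 for pca31 against WT, beside medians over all genes of 0.00, 0.00 and 0.01. Of the 32, 28 were below 0 in pca31 against WT with TMM scaling, but 18 were below 0 when counts were scaled by library totals alone, where the median of the 32 was -0.04 and that of all genes 0.21. In the same order of contrasts, the 12 photosystem I genes had medians of 0.00, -0.28 and -0.30, the 10 photosystem II genes 0.00, -0.32 and -0.23, the 7 carriers 0.14, -0.33 and -0.24, and the 3 ATP synthase genes 0.04, -0.19 and -0.22. The 3 contrasts share libraries, so their values are not independent. The floral marker sums were higher in all 6 mutant libraries than in WT. Still, edgeR called 0 of the 9 floral markers in each genotype contrast, with or without the block. Between replicate numbers 5 of the 9 were called lower in number 3 against 1 and 6 in number 3 against 2, and 0 higher. The part of the floral markers in the values of the 32 genes was not tested.

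PSAG, a membrane subunit at the outer edge of photosystem I (AT1G55670, chromosome 1, 20802670 to 20803449, minus strand, TAIR10.1 as are all coordinates here), had the lowest log2 fold change in pca31 against WT. WT libraries 1, 2 and 3 were at 8789, 10440.5 and 3919.6 CPM, the atrzf1 libraries at 9059, 9177 and 3838 and the pca31 libraries at 6448, 5971 and 3051. The pca31 library was lowest within each number, yet the groups overlapped, since WT 3 and atrzf1 3 lay below pca31 1 and 2. The log2 fold change was -0.58 ± 0.51 (SE, edgeR adjusted p = 1). With the block in the fit it was -0.54 ± 0.15 with edgeR (adjusted p = 0.390). DESeq2 with the block gave -0.56 ± 0.15 (adjusted p = 0.0406), the only call on the 32 genes between genotypes in any fit, where it called 0.561% of all genes.

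FNR2, 1 of the 2 leaf ferredoxin-NADP reductases (AT1G20020, chromosome 1, 6942625 to 6945091, plus strand), had the highest log2 fold change in pca31 against WT. WT libraries 1, 2 and 3 held 406, 210.4 and 274 CPM, those of atrzf1 487, 256 and 346 and those of pca31 556, 447 and 341. Within each number pca31 was above WT, and the ranges of the genotypes overlapped. The means were 296 ± 99.6, 363 ± 117 and 448 ± 108 CPM (SD, n = 3), and the log2 fold change 0.60 ± 0.36 (edgeR adjusted p = 1), or 0.63 ± 0.18 with the block (adjusted p = 0.394). FNR1, its partner in the thylakoid-bound reductase (AT5G66190, chromosome 5, 26450964 to 26453199, minus strand), was the other of the 2 genes that were higher in pca31 than in WT within all 3 numbers, a pattern that 15.7% of all genes showed. With library totals 4 of the 32 and 31.9% of all genes showed it.

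FNR1 also had the highest value in atrzf1 against WT, at 0.36 ± 0.47 in the fit with genotype alone (edgeR adjusted p = 1), from 493, 628 and 326 CPM in the WT libraries and 466, 1023 and 366 in those of atrzf1, beside 607, 746 and 342 in those of pca31. PSBY (AT1G67740, chromosome 1, 25394031 to 25395249, minus strand) had the lowest, at -0.63 ± 0.83, and the highest in pca31 against atrzf1, at 0.51 ± 0.83. Its WT values of 424, 168 and 45.2 CPM, atrzf1 values of 158, 175 and 77.6 and pca31 values of 172, 360.3 and 52.3 overlapped throughout, with WT 1 and pca31 2 high and all 3 number 3 libraries low. FD1, a leaf ferredoxin (AT1G10960, chromosome 1, 3664187 to 3665040, plus strand), had the lowest value in pca31 against atrzf1, at -0.58 ± 0.75, from 203, 494 and 92.3 CPM in atrzf1 and 158, 291 and 78 in pca31. The SE in this fit takes in the spread between numbers, and with the block most of these extremes were other genes or smaller values. In atrzf1 against WT the highest was then ATPD at 0.55 ± 0.31, with FNR1 at 0.28 ± 0.18, and the lowest PSBY at -0.25 ± 0.41. In pca31 against atrzf1 the highest was FNR2 at 0.34 ± 0.18, with PSBY at 0.22 ± 0.40, and the lowest PSAG at -0.48 ± 0.15, with FD1 at -0.46 ± 0.15.

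Within replicate numbers, 18 of the 32 genes were lower in pca31 than in atrzf1 in all 3 matched pairs, where 11.4% of all genes were, and 18 were lower in pca31 than in WT in all 3, where 14.3% were. For atrzf1 against WT it was 0 of 32 lower in all 3 pairs (13.1% of all genes) and 5 of 32 higher (12.1%), namely PSAE2, PSAK, PETC, FD1 and FNR2. The median difference in log2(CPM + 1) between pca31 and WT was -0.13 within number 1, -0.45 within number 2 and -0.10 within number 3, and between pca31 and atrzf1 -0.04, -0.60 and -0.28. Number 2 thus held the widest gaps with TMM scaling. With library totals, an alternative chosen after seeing the data, these medians were -0.02, -0.09 and 0.04 against WT and 0.02, -0.26 and -0.19 against atrzf1, so that the direction turned within 1 number in each. The medians over all genes were then 0.10, 0.29 and 0.12 against WT and 0.05, 0.27 and 0.08 against atrzf1. The medians of the 32 lay below those in each number. Then 12 of the 32 were lower in pca31 than in atrzf1 in all 3 pairs (4.35% of all genes) and 6 were lower than in WT (5.02%). The number 2 pca31 library had a TMM factor of 1.05 against 0.819 for WT and 0.824 for atrzf1, and the part of that difference in the result was not tested. Single libraries moved these medians. In the fit with genotype alone, the median of the 32 for pca31 against WT was -0.31 without pca31 2, -0.52 without pca31 1 and 0.00 without pca31 3, where 16 genes lay on each side of 0. It was -0.10 without WT 1, -0.09 without WT 2 and -0.56 without WT 3. For pca31 against atrzf1 it was -0.34 without pca31 2, -0.59 without pca31 1, -0.08 without pca31 3, -0.10 without atrzf1 2 and -0.54 without atrzf1 3. For atrzf1 against WT it was 0.20 without WT 1, 0.19 without WT 2, -0.23 without WT 3, -0.09 without atrzf1 1, -0.18 without atrzf1 2 and 0.25 without atrzf1 3. In all of these refits edgeR called 0 of the 32.

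**Figure D3:**
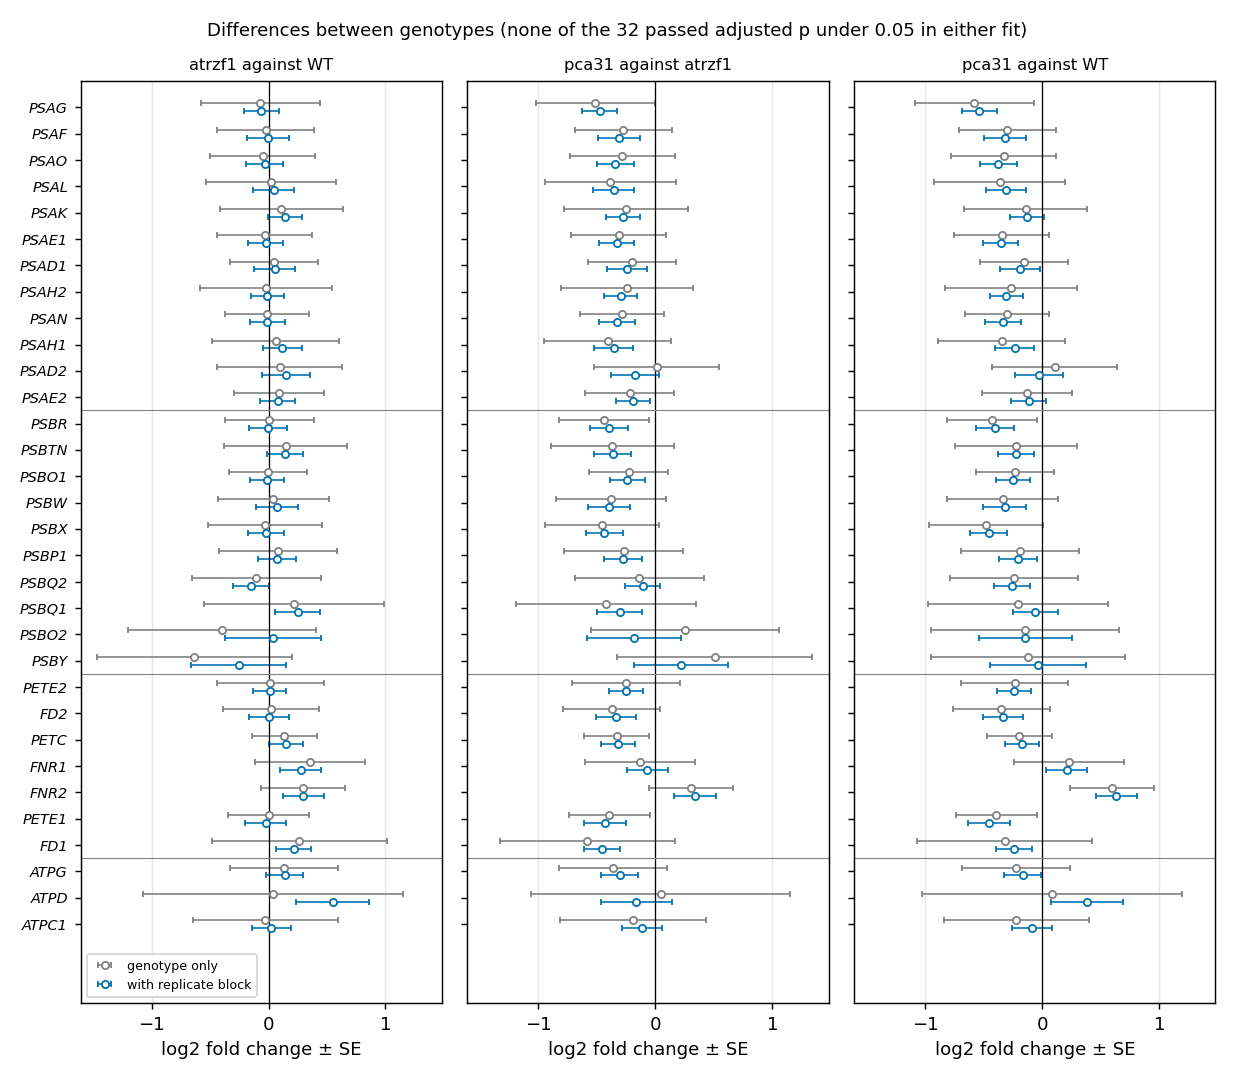
Log2 fold change of each of the 32 genes in the 3 genotype contrasts, with bars of 1 SE, from the fit with genotype alone (grey) and with the replicate block (blue). In pca31 against WT 28 of the 32 grey points lie below 0 and in atrzf1 against WT 12 do, and none of the 32 passed an adjusted p of 0.05.

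The replicate numbers separated the same genes widely. Each number holds 1 library of each genotype, so libraries were compared between numbers with genotype as a term, though the labels do not say what a number marks. In number 3 against number 1, 31 of the 32 genes fell, where 32.9% of all genes were called in either direction and 17.3% were called lower. The median of the 32 was -1.10, beside -0.02 over all genes, and all 32 were lower in all 3 matched pairs, where 32.9% of all genes were. Scaling by library totals, which moved the median of all genes to 0.30, left 25 of the 32 called lower and a median of -0.78, where 36.2% of all genes were called, 9.51% lower and 26.7% higher. The number 3 libraries are those with the root marker counts, of which 14 of the 15 tested markers rose, and those with low leaf marker sums. Of the 5 leaf markers, 3 were called lower, and the other 2 were above 0 and not called. With library totals 3 were called lower and 1 higher. The part of the root or leaf markers in the result was not tested. In RNA taken from many cell types together, fewer cells of a type and less RNA per cell cannot be told apart.

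**Figure D4:**
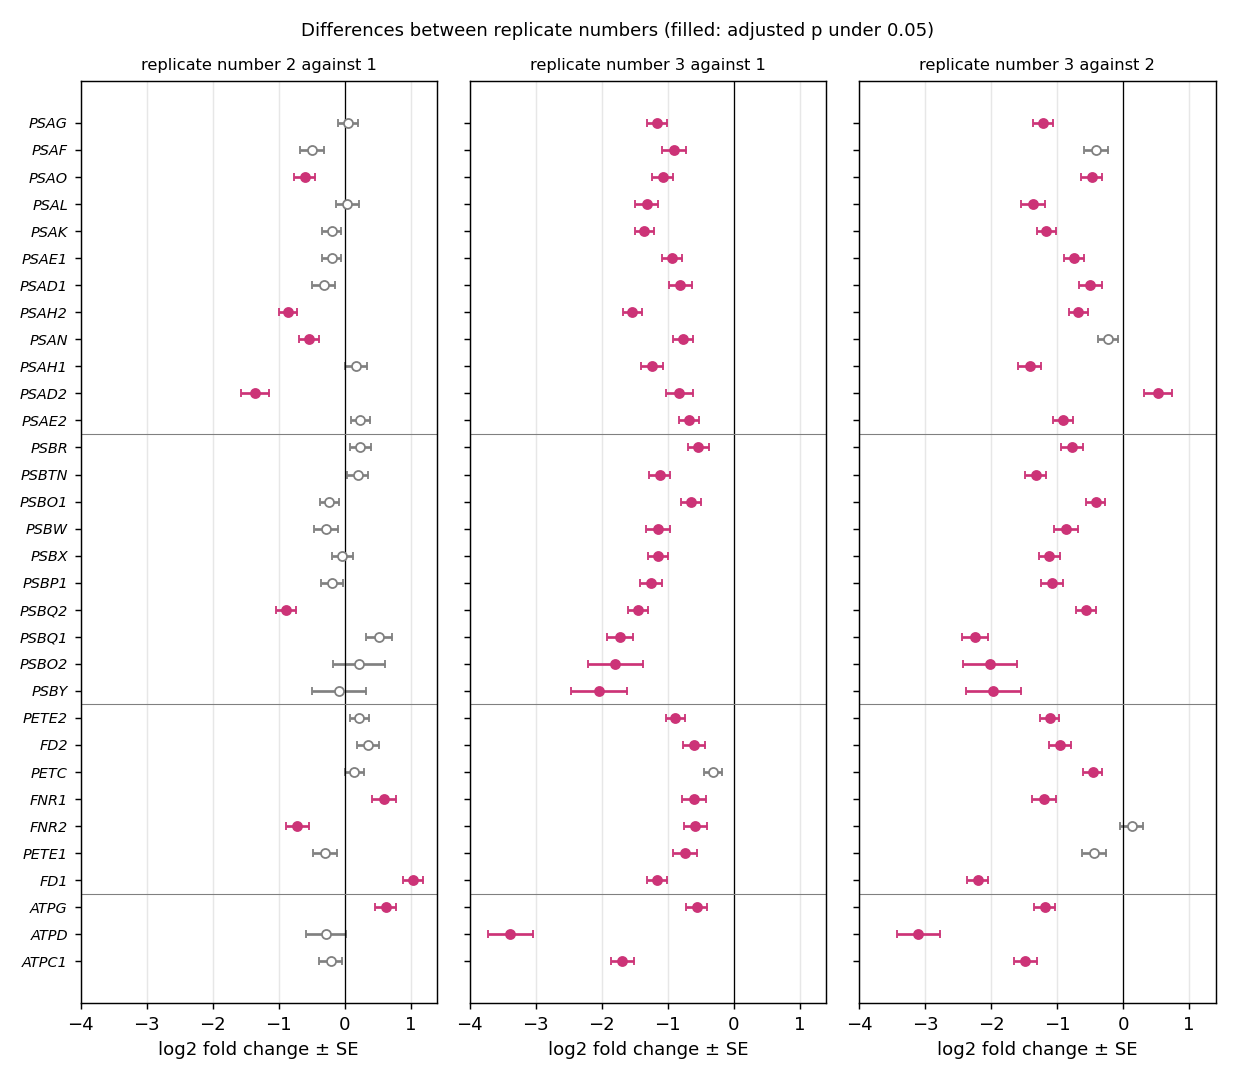
Log2 fold change of each of the 32 genes between replicate numbers, with bars of 1 SE, from the fit with genotype and number; filled points passed an adjusted p of 0.05. In 3 against 1 all 32 lie below 0 and 31 passed, and ATPD lies lowest at -3.39.

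Photosystem I genes fell in number 3 against 1 in 12 of 12 cases, with a median of -1.01, or -0.69 with library totals and 12 again called. PSAG, the highest of the group, was at 8789, 9059 and 6448 CPM in the number 1 libraries (WT, atrzf1 and pca31, the order kept below), at 10440.5, 9177 and 5971 in number 2 and at 3919.6, 3838 and 3051 in number 3. All 3 number 3 libraries lay below the other 6. The log2 fold change was -1.16 ± 0.15 against number 1 (edgeR adjusted p = 0.000159). PSAH2, 1 of the 2 genes for the H subunit on which antenna complexes dock during state transitions (AT1G52230, chromosome 1, 19454798 to 19455668, plus strand), had the lowest value of the group. Its CPM went from 2031, 1998 and 1838 in number 1 to 1222, 1156 and 887 in number 2 and 715, 750.5 and 572 in number 3, with no overlap between the 3 numbers. That was a log2 fold change of -1.54 ± 0.14 (edgeR adjusted p = 1.44e-05). Its copy PSAH1 (AT3G16140, chromosome 3, 5467987 to 5469594, minus strand) was at 870.5, 863 and 717 CPM in number 1, 1046, 1061 and 686 in number 2 and 301, 390.3 and 340.0 in number 3, where number 3 alone stood low. PSAL (AT4G12800), the neighbour of the H subunit, gave -1.32, PSAO (AT1G08380), a small membrane subunit, -1.08, and PSAK (AT1G30380), a membrane subunit on the antenna side, -1.36.

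On the electron-donor and acceptor faces of photosystem I the values ran from -0.94 to -0.68. PSAF (AT1G31330), which docks plastocyanin, gave -0.91, and PSAN (AT5G64040), a luminal subunit on the same face, -0.77. PSAD and PSAE form the stromal face where ferredoxin docks. PSAD1 (AT4G02770, chromosome 4, 1229031 to 1230164, minus strand) was at 2513, 2441 and 2789 CPM in number 1, 2278, 2495 and 1573 in number 2 and 1546, 1600.3 and 1321 in number 3, a log2 fold change of -0.81 ± 0.17 in 3 against 1 (edgeR adjusted p = 0.00419). PSAD2 (AT1G03130, chromosome 1, 753307 to 754262, minus strand) took another order, at 808, 762 and 1036 CPM in number 1, 369, 421 and 245 in number 2 and 453, 559 and 474 in number 3, with number 2 lowest and the 3 numbers not overlapping. PSAE1 (AT4G28750, chromosome 4, 14202758 to 14204061, minus strand) gave -0.94, from 3034, 3011 and 2754 CPM in number 1 to 1648, 1682 and 1292 in number 3. PSAE2 (AT2G20260, chromosome 2, 8736734 to 8737767, plus strand), the lowest of the group by mean CPM, was at 567, 578 and 591 CPM in number 1, 704, 796 and 565 in number 2 and 369.7, 375 and 344 in number 3 and gave -0.68 ± 0.15 (edgeR adjusted p = 0.00481).

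Photosystem II genes fell in 10 of 10 cases, with a median of -1.21, or -0.88 with library totals and 9 called. The lowest value was that of PSBY, which was at 424, 158 and 172 CPM in number 1, 168, 175 and 360.3 in number 2 and 45.2, 77.6 and 52.3 in number 3. All 3 number 3 libraries lay below the rest, while number 1 was spread 2.68-fold between its own libraries, and the log2 fold change was -2.04 ± 0.42 (edgeR adjusted p = 0.00315). PSBR (AT1G79040, chromosome 1, 29735952 to 29737009, plus strand) had the highest value of the group. From 11552, 11042 and 9794 CPM in number 1 and 14448, 15575 and 9016 in number 2 it went to 8139, 7712 and 6551 in number 3, again below all others, and its log2 fold change was -0.54 ± 0.16 (edgeR adjusted p = 0.0239).

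PSBO, PSBP and PSBQ are the luminal proteins that shield the water-splitting manganese cluster. PSBQ1 (AT4G21280, chromosome 4, 11334352 to 11335815, plus strand) was at 859, 772 and 823 CPM in number 1, 1183, 1552 and 870.0 in number 2 and 207, 289.8 and 255 in number 3, with no overlap. It gave -1.72 ± 0.19 (edgeR adjusted p = 5.55e-05). PSBQ2 (AT4G05180, chromosome 4, 2671523 to 2673243, minus strand) was at 2608, 2691 and 2219.6 CPM in number 1, 1539.8, 1163 and 1352 in number 2 and 1015, 947 and 793 in number 3, also without overlap. It gave -1.45 ± 0.16 (edgeR adjusted p = 3.69e-05). The 2 copies differed in number 2, where the first was highest and the second intermediate. PSBO1 (AT5G66570, chromosome 5, 26568572 to 26570461, plus strand), the main copy of the manganese-stabilising protein, was at 6012, 5725 and 5519.7 CPM in number 1, 5063, 5629.6 and 4128 in number 2 and 4081, 3759.7 and 3239 in number 3. Number 3 lay below the other 6, with WT 3 close to pca31 2, and the gene gave -0.65. PSBO2 (AT3G50820, chromosome 3, 18890874 to 18892508, minus strand), the minor copy, was at 487, 208 and 251 CPM in number 1, 321, 297 and 469 in number 2 and 58.6, 154 and 63.6 in number 3 and gave -1.80 ± 0.42 (edgeR adjusted p = 0.00647); its number 3 libraries were 2.62-fold apart. PSBP1 (AT1G06680) gave -1.26. The small subunits PSBX (AT2G06520), PSBW (AT2G30570) and PSBTN (AT3G21055) gave -1.15, -1.14 and -1.12.

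Among the electron carriers 6 of 7 fell, with a median of -0.61, but 2 of 7 with library totals, with a median of -0.28. PETC (AT4G03280, chromosome 4, 1440146 to 1441863, plus strand), the Rieske iron-sulfur protein of cytochrome b6f, was the member that did not pass, and the highest value of the 32. It was at 787, 807 and 665 CPM in number 1, 874, 944 and 691 in number 2 and 554, 682 and 578 in number 3, so number 3 overlapped number 1. Its log2 fold change was -0.32 ± 0.14 (edgeR adjusted p = 0.113), and 0.00 with library totals (adjusted p = 0.992). PETE2 (AT1G20340, chromosome 1, 7042046 to 7043392, minus strand), the main plastocyanin gene and the highest of the group, was at 7409, 7061 and 6768 CPM in number 1, 8654, 9239.7 and 7047 in number 2 and 4103, 4104 and 3317 in number 3, with number 3 below all others. It gave -0.89. The second plastocyanin gene PETE1 (AT1G76100, chromosome 1, 28553883 to 28554930, minus strand) was at 400.1, 386 and 374 CPM in number 1, 327, 400.1 and 239.7 in number 2 and 302, 244 and 170.3 in number 3. Number 3 lay below number 1 and overlapped number 2, and the gene gave -0.74. FD2 (AT1G60950, chromosome 1, 22444307 to 22445291, plus strand), the main leaf ferredoxin, was at 2079, 1925 and 2038 CPM in number 1, 2867, 3158 and 1875 in number 2 and 1471, 1438 and 1119 in number 3 and gave -0.61. FD1, the lowest of the group, was at 199, 203 and 158 CPM in number 1, 380.0, 494 and 291 in number 2 and 78.8, 92.3 and 78 in number 3, with no overlap. It gave -1.16 ± 0.15 (edgeR adjusted p = 0.000181). The 2 reductases FNR1 and FNR2 gave -0.60 and -0.58.

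All 3 ATP synthase genes fell in number 3 against 1, and 2 of 3 with library totals. ATPD, the delta subunit that joins the catalytic head to the stalk (AT4G09650, chromosome 4, 6100714 to 6101864, plus strand), had the lowest value of the 32 genes and was at 947, 655 and 822 CPM in number 1, 558, 804 and 723 in number 2 and 37.6, 127 and 89.9 in number 3. The number 3 libraries lay far below the other 6 and were 3.38-fold apart among themselves, the widest spread of any of the 32 within a number. It was 10.5-fold lower than in number 1, a log2 fold change of -3.39 ± 0.34 (edgeR adjusted p = 2.12e-05). ATPC1 (AT4G04640, chromosome 4, 2350498 to 2352025, minus strand), the gamma subunit that turns inside the head and the lowest of the 3 by mean CPM, was at 801, 798 and 583 CPM in number 1, 671, 605 and 599 in number 2 and 194, 229.8 and 247 in number 3, with number 3 below all others. It gave -1.69 ± 0.17 (edgeR adjusted p = 2.70e-05). ATPG, a stator subunit of the membrane sector (AT4G32260, chromosome 4, 15573553 to 15574737, minus strand), was at 558, 502 and 490.3 CPM in number 1, 831, 963 and 633 in number 2 and 318, 405 and 334 in number 3, with no overlap. It gave -0.56 ± 0.16 (edgeR adjusted p = 0.0181).

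The direction did not rest on 1 genotype, since the median of the 32 genes in number 3 against 1 was -1.07 within WT, -0.87 within atrzf1 and -1.11 within pca31. Leaving out 1 library at a time kept 24 (without atrzf1 3) to 31 genes called, where 20.6 to 36.7% of all genes were called. The calls that were lost were those of PSAD2 (without WT 3 or pca31 1), PSBO1 (atrzf1 3), PSBR and ATPG (each without WT 1, WT 3, atrzf1 3 or pca31 1) and PETE1 (atrzf1 3 or pca31 3). FD2 was lost without WT 3, atrzf1 3, pca31 1 or pca31 3, FNR1 without those 4 or WT 1, and FNR2 without WT 1, WT 3, atrzf1 1, atrzf1 3 or pca31 3. The log2 fold changes of these 8 were then between -0.74 and -0.41, with edgeR adjusted p between 0.0522 and 0.164.

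Number 3 against number 2 showed 27 of the 32 genes lower and 1 higher, where 49.2% of all genes were called, 23.4% lower and 25.8% higher. The median of the 32 was -1.02, beside 0.06 over all genes, and -0.60 beside 0.46 with library totals, where 21 were lower and 2 higher and, of all genes, 13.5% were lower and 39.3% higher. Number 3 libraries enter both this and the previous comparison. ATPD again had the lowest value at -3.10 ± 0.33 (edgeR adjusted p = 2.02e-05), 8.58-fold lower. PSBQ1 gave -2.24 ± 0.20, FD1 -2.20 ± 0.16, PSBO2 -2.02 and PSBY -1.96. PSAD2 was the 1 gene that rose, at 0.53 ± 0.21 (edgeR adjusted p = 0.04997), a call lost without any 1 of WT 1, WT 2, WT 3, atrzf1 3, pca31 2 or pca31 3, with values between 0.26 and 0.65. With RLE size factors it was 0.50 and not called. The 4 genes that did not pass were PSAF at -0.41, PSAN at -0.23, PETE1 at -0.44 and FNR2 at 0.13, and FNR2 passed with library totals at 0.53 (edgeR adjusted p = 0.0459). PETE1 passed with RLE size factors (-0.47, edgeR adjusted p = 0.0490), DESeq2 (-0.47, adjusted p = 0.0256) and limma-voom (-0.44, adjusted p = 0.0387). PSAF passed with DESeq2 (-0.44, adjusted p = 0.0348).

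Leaving out 1 library gave 23 to 30 genes called in number 3 against 2, where 37 to 48.8% of all genes were called. PSAO and PSAD1 were lost without WT 2, WT 3, atrzf1 2, atrzf1 3 or pca31 3, PSBO1 without those 5 or WT 1, and PETC without WT 2, WT 3, atrzf1 2 or atrzf1 3, with log2 fold changes between -0.52 and -0.32 and edgeR adjusted p between 0.0531 and 0.161. PETE1 passed without WT 3, pca31 1 or pca31 2, and PSAF (-0.63) and PSAN (-0.38) passed without pca31 2.

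Number 2 against number 1 split the set. Of the 32 genes 9 were called, 3 higher and 6 lower, where 22% of all genes were called, 9.87% higher and 12.1% lower, so the share of the 32 was near that of all genes. In the same comparison 6 of 10 clock genes fell and 2 rose, with a median of -2.85 and values from -8.07 to 1.61, and the part of the clock in the result was not tested. FD1 rose most, from 199, 203 and 158 to 380.0, 494 and 291 CPM with no overlap, a log2 fold change of 1.04 ± 0.15 (edgeR adjusted p = 0.00105). ATPG rose by 0.63 ± 0.16 and FNR1 by 0.59 ± 0.18, the latter from 493, 466 and 607 to 628, 1023 and 746 CPM. PSAD2 fell most, from 808, 762 and 1036 to 369, 421 and 245 CPM, and was 2.56-fold lower, a log2 fold change of -1.35 ± 0.21 (edgeR adjusted p = 0.00134). The other genes that fell were PSBQ2 at -0.89 ± 0.15, PSAH2 at -0.86 ± 0.14, FNR2 at -0.71 ± 0.18, PSAO at -0.60 ± 0.16 and PSAN at -0.54 ± 0.15. By role, 4 photosystem I genes and 1 photosystem II gene fell, and among the carriers 2 rose and 1 fell. The partners of 4 of them did not pass, with PSAD1 at -0.31 ± 0.17, PSAH1 at 0.17 ± 0.17, PSBQ1 at 0.52 ± 0.19 and FD2 at 0.35 ± 0.17. PSBQ1 passed with DESeq2 (0.58, adjusted p = 0.0175) and with no filter (0.54, edgeR adjusted p = 0.0468). PSAN was not called with RLE size factors (-0.48, edgeR adjusted p = 0.0525).

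The count for number 2 against 1 depended on single libraries, being 5 without WT 1, 4 without WT 2, 5 without atrzf1 1, 4 without atrzf1 2 and 11 without pca31 2. The share of all genes called moved too, at 10.9, 9.7, 8.8, 8.69 and 29.7% in the same order. PSAD2, PSAH2, PSBQ2 and FD1 were called in all 9 refits that left out 1 library. PSAN was lost in 8 of 9 (-0.62 to -0.36), PSAO without WT 1, WT 2, atrzf1 2, atrzf1 3 or pca31 1 (-0.67 to -0.45) and FNR1 without WT 1, WT 2 or any atrzf1 library (0.38 to 0.71). FNR2 was lost without WT 1, WT 2, atrzf1 1 or atrzf1 2 (-0.69 to -0.59) and ATPG without WT 2, atrzf1 1 or atrzf1 2 (0.49 to 0.59). Without pca31 2, PSBQ1 (0.77), PSBR (0.44) and FD2 (0.56) passed as well. With the number 3 libraries, which carried the root marker counts, left out of the fit, 8 of the 32 were called and PSAN alone was lost (-0.52, edgeR adjusted p = 0.0652). Of all genes 21.5% were called in that fit.

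Of the 32 genes 16 form 8 pairs of duplicated genes, and the balance within most pairs differed between replicate numbers. A share of 1 copy in the reads of its pair is free of depth and scaling within a library. Across the 3 numbers 7 of 8 pairs differed at an adjusted p below 0.05 in exact permutation tests of the log2 ratio (1680 assignments, Benjamini-Hochberg over 8 pairs), and across genotypes within numbers 0 of 8 did, with adjusted p from 0.667 to 0.917 and a smallest possible raw p of 0.0278. At that smallest p, 1 pair alone could not fall below 0.05 after adjustment over 8 pairs. The 0 of 8 therefore does not show that the balance was alike between genotypes, and it cannot be set against the 7 of 8. No other pairs of genes were tested, so the 7 of 8 has no share over other pairs beside it. Of all single genes 22% were called in number 2 against 1, 32.9% in 3 against 1 and 49.2% in 3 against 2. Whether the shift was particular to these pairs was not tested.

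FD1 took 8.76, 9.55 and 7.18% of the reads of the ferredoxin pair in number 1, 11.7, 13.5 and 13.4% in number 2 and 5.08, 6.03 and 6.52% in number 3. The 3 numbers did not overlap, and the raw p of 0.00357 in the exact permutation test was the smallest possible (adjusted p = 0.0286). PSAH1 took 30.0, 30.2 and 28.1% of its pair in number 1, 46.1, 47.9 and 43.6% in number 2 and 29.6, 34.2 and 37.3% in number 3, with number 2 high and numbers 1 and 3 overlapping (exact permutation test, adjusted p = 0.0286). For PSBQ1 the shares were 24.8, 22.3 and 27.1% in number 1, 43.5, 57.2 and 39.2% in number 2 and 16.9, 23.4 and 24.4% in number 3 (exact permutation test, adjusted p = 0.0286). Here too number 2 stood apart. FNR1 likewise took 54.9, 48.9 and 52.2% in number 1, 74.9, 80.0 and 62.5% in number 2 and 54.4, 51.4 and 50.1% in number 3 (exact permutation test, adjusted p = 0.0449). PSAD1 was another with number 2 high, at 75.7, 76.2 and 72.9% in number 1, 86.1, 85.6 and 86.5% in number 2 and 77.3, 74.1 and 73.6% in number 3 (exact permutation test, adjusted p = 0.0449).

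In the plastocyanin pair PETE1, the minor copy, took 5.12, 5.18 and 5.24% in number 1, 3.65, 4.15 and 3.29% in number 2 and 6.85, 5.62 and 4.88% in number 3, with number 2 low (exact permutation test, adjusted p = 0.0286). PSAE1 took 84.3, 83.9 and 82.3% in number 1, 80.9, 78 and 77.9% in number 2 and 81.7, 81.8 and 79% in number 3 (exact permutation test, adjusted p = 0.0449), a narrow range in which numbers 2 and 3 overlapped. PSBO1 was the copy whose share missed the threshold, at 92.5, 96.5 and 95.7% in number 1, 94, 95 and 89.8% in number 2 and 98.6, 96.1 and 98.1% in number 3 (exact permutation test, adjusted p = 0.0607), with number 3 overlapping number 1. When 1 library was left out, the FD and PSAH pairs stayed below 0.05 in 9 of 9 refits. The count of pairs below 0.05 was 2 without WT 1 and 3 without WT 3, and 5 to 7 without any of the other 7 libraries. PSAD was lost without WT 1 (adjusted p = 0.0514), PSBQ and PETE without WT 1 or WT 3 (0.05 to 0.0571), and PSAE and FNR in 6 of 9 refits each (up to 0.106 and 0.0816), while PSBO passed without atrzf1 3 (0.0429).

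**Figure D5:**
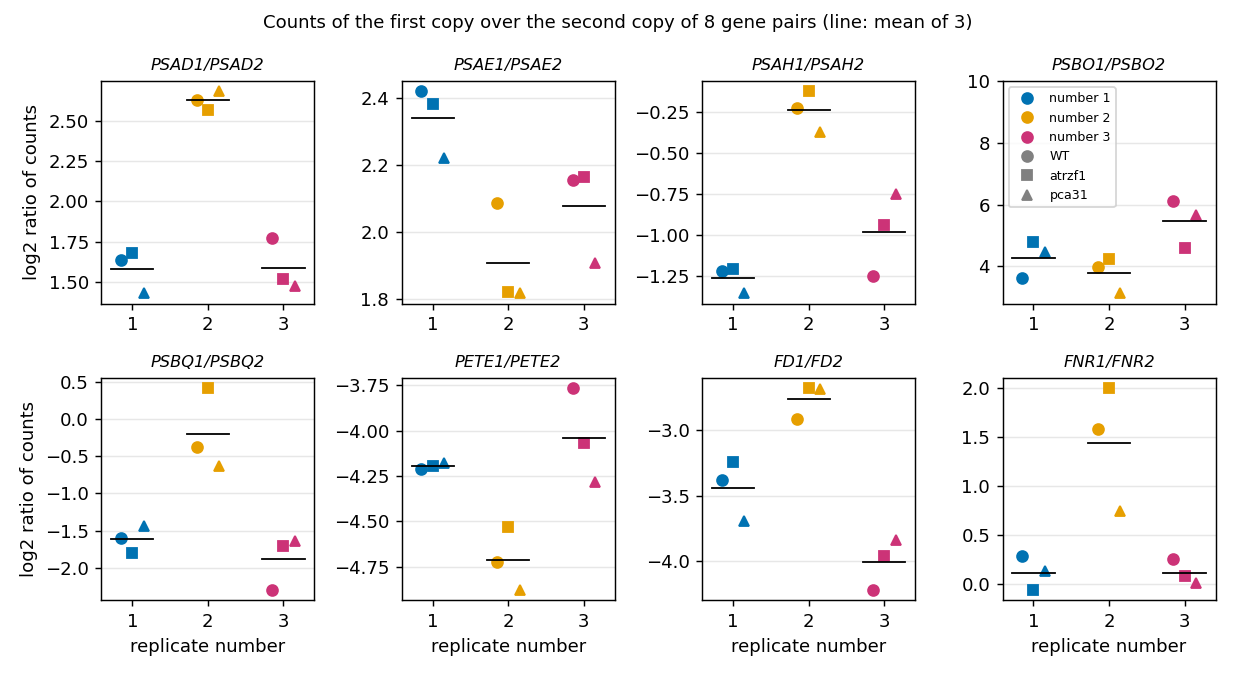
Log2 ratio of the counts of the first to the second copy of each of the 8 duplicated gene pairs, with 1 point per library by replicate number. Number 2 stands apart from numbers 1 and 3 for PSAD1/PSAD2, PSAH1/PSAH2, PSBQ1/PSBQ2 and FNR1/FNR2, and the 3 numbers do not overlap for FD1/FD2.

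The coding sequences of the pairs were 75.0 (PETE) to 88.0% (PSAD) identical. Within the last 500 bases of the transcripts, where this 3′-end method reads, the longest shared run was 35 bases for PSAD, 32 for PSBO, 21 for PSAE, 19 for FD, 17 for FNR, 14 for PSBQ, 10 for PETE and 9 for PSAH. Whether reads were exchanged between copies was not tested. Counting by strand is not given in the sources used here. Genes on the opposite strand overlapped the 3′ end of 8 members (PSAE1, PSAE2, PSAH1, PSAH2, PSAN, PSBP1, PSBR and FNR1), by 788 bases for PSAH1 and AT3G16130 and by 9 to 191 bases for the other 7, and reads of overlapping genes cannot be told apart. Short of the annotated 3′ end, opposite-strand genes also overlapped PSAG by 479 of its 780 bases (AT1G55673) and PSAE1 by 436 bases (AT4G28755).

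The 250 bases before the annotated start are shown for 3 of the pairs whose copies differed in number 2, to set the sequences of copies side by side. They were read from the RefSeq genome TAIR10.1, 5′ to 3′ on the strand of the gene, at chr3:5469595-5469844, minus strand for PSAH1, chr1:19454548-19454797, plus strand for PSAH2, chr4:11334102-11334351, plus strand for PSBQ1, chr4:2673244-2673493, minus strand for PSBQ2, chr5:26453200-26453449, minus strand for FNR1 and chr1:6942375-6942624, plus strand for FNR2. Capitals mark matches on either strand to the G-box CACGTG, the I-box GATAAG, the GLK-associated CCAATC, the TATA-box TATAAA or the evening element AAAATATCT; no 2 matches in these 6 overlapped.
PSAH1: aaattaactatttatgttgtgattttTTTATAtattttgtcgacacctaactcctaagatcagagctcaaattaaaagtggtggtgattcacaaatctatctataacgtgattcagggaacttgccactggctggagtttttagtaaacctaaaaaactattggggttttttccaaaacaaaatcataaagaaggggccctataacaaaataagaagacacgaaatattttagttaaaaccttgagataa
PSAH2: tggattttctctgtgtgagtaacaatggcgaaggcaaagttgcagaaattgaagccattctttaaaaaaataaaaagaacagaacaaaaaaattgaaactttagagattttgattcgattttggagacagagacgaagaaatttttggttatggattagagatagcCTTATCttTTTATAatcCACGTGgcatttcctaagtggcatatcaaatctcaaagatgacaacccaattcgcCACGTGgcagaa
PSBQ1: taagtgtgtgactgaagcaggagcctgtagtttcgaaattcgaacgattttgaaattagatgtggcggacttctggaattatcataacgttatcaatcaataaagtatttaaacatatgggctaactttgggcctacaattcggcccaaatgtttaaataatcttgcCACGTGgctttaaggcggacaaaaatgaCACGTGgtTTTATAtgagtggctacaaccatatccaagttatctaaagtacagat
PSBQ2: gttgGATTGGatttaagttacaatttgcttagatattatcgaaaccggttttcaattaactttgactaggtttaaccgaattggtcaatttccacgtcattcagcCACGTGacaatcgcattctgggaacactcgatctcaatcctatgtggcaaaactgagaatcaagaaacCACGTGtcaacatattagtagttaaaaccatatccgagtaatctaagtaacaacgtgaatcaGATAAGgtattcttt
FNR1: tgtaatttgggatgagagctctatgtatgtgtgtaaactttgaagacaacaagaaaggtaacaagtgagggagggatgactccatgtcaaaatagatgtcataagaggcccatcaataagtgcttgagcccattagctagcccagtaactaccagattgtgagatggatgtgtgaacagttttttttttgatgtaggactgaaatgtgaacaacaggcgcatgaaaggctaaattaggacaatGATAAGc
FNR2: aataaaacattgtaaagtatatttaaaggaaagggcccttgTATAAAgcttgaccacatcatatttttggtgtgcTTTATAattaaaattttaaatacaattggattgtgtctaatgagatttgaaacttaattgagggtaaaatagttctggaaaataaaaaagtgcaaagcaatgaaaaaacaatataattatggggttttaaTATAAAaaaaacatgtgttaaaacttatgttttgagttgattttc

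In PSAH2, which fell in number 2 against 1, G-box matches began 67 and 12 bases upstream of the annotated start, an I-box match 84 and a TATA-box match 76 bases upstream, while PSAH1 held a TATA-box match alone, 224 bases upstream. PSBQ1 held G-box matches 83 and 55 bases and a TATA-box match 47 bases upstream, and PSBQ2 held G-box matches 145 and 77 bases, an I-box match 15 bases and a GLK-associated match 246 bases upstream. The FNR1 window held an I-box match 7 bases upstream, and that of FNR2 TATA-box matches 209, 175 and 45 bases upstream. In windows not shown, PSAD2, which fell most in number 2 against 1, and FD1, which rose most, held no match. Their partners FD2 and PSAD1 held no match and an I-box match 181 bases upstream. Over all 32 genes the G-box letters were in 6 windows (18.8%, against 6.49% of all 27443 windows of that length), the I-box letters in 9 (28.1% against 12.3%), CCAATC in 4 (12.5% against 10.2%), TATAAA in 16 (50% against 47.3%) and the evening element in 1, that of ATPC1 (3.12% against 2.36%). A match is a description of the letters, and no binding was measured.

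Beside the counts of the gene lists below, 17.3% of all genes were called lower and 15.6% higher in number 3 against 1. In 2 against 1 it was 12.1 and 9.87%, and in 3 against 2 23.4 and 25.8%. With library totals it was 9.51 and 26.7% in 3 against 1 and 13.5 and 39.3% in 3 against 2. Of the other genes of photosynthesis, the 21 light-harvesting genes, whose proteins feed energy to the photosystems, fell in 19 cases and rose in 0 in number 3 against 1, with a median of -1.41, or 16 and 1 with library totals. The lowest was LHCB2.3, an antenna protein of photosystem II, at -3.42 ± 0.22 (edgeR adjusted p = 8.92e-07), from 1485, 1402 and 1145 CPM in number 1 and 78.9, 38.3 and 26.2 in number 2 to 177, 129 and 88.6 in number 3. The highest was LHCB7, a rare antenna protein, at 0.61 ± 0.29 (edgeR adjusted p = 0.126), which passed with library totals. In number 2 against 1 the antenna genes had a median of -1.0, with 14 lower and 2 higher, where the 32 core and carrier genes had -0.13. In number 3 against 2, 9 antenna genes fell and 6 rose, and with library totals 6 fell and 9 rose.

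The 19 Calvin cycle genes, whose enzymes use the ATP and NADPH, were at a median of -0.65 in number 3 against 1, with 14 lower and 1 higher, or 8 and 1 with library totals. RPI3, a ribose-5-phosphate isomerase, was the lowest at -1.51 ± 0.18 (edgeR adjusted p = 6.95e-05), and RPE, the ribulose-5-phosphate epimerase, the highest at 0.73 ± 0.16 (edgeR adjusted p = 0.00404). RPI3 was at 344, 326 and 365 CPM in number 1, 729, 1093 and 678 in number 2 and 110.2, 134 and 123 in number 3 and RPE at 187, 168 and 207, at 174, 199 and 173 and at 302, 349 and 282 in the same order. Number 3 was thus lowest for RPI3 and highest for RPE. In number 2 against 1 the Calvin cycle genes had a median of 0.51, with 9 higher and 0 lower in edgeR. In number 3 against 2, 18 of the 19 fell and 1 rose.

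Of 30 genes for regulation and assembly of the thylakoid chain, 13 fell and 2 rose in number 3 against 1, with a median of -0.42, or 8 and 5 with library totals. In the other comparisons 5 rose and 5 fell in number 2 against 1, and 5 rose and 13 fell in number 3 against 2, where with library totals 10 rose and 9 fell. PSBP2, a relative of PSBP1, was the lowest at -1.80 ± 0.26 (edgeR adjusted p = 0.000304) and FD3, the ferredoxin of roots, the highest at 0.95 ± 0.15 (edgeR adjusted p = 0.000523). PSBS, which switches on the dissipation of excess light energy, was at 819, 752 and 688 CPM in number 1, 947, 1166 and 791 in number 2 and 486, 459 and 344 in number 3, with number 3 below all others, and fell by 0.82 ± 0.15 on the log2 scale (edgeR adjusted p = 0.00154).

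Among 18 regulators of photosynthesis genes 3 rose and 5 fell in number 3 against 1, with a median of -0.02, or 4 and 3 with library totals and a median of 0.30. In the other comparisons 2 rose and 7 fell in 2 against 1, and 10 rose and 3 fell in 3 against 2. Of all genes 32.9% were called in either direction in 3 against 1, 22% in 2 against 1 and 49.2% in 3 against 2. The transcription factor gene GLK1, an activator of chloroplast development, was at 78.7, 67.9 and 72 CPM in number 1, 81.9, 82.9 and 50.2 in number 2 and 20.5, 25 and 21.4 in number 3, with number 3 below all others, a log2 fold change in 3 against 1 of -1.71 ± 0.19 (edgeR adjusted p = 4.87e-05), the lowest of the list. GLK2, its partner, was at 69.1, 51.4 and 54.5 CPM in number 1, 32.2, 40.6 and 21 in number 2 and 29.9, 29.4 and 29 in number 3 and gave -0.98 ± 0.20 (edgeR adjusted p = 0.00351). In number 2 against 1 GLK2 fell (-0.93) and GLK1 was at -0.05. The highest of the list was GNL, a GATA factor gene, at 2.26 ± 0.35 (edgeR adjusted p = 0.000552). Of 10 clock genes 6 fell and 2 rose in number 2 against 1, 2 fell and 2 rose in 3 against 1, and 2 fell and 5 rose in 3 against 2, where PRR9 had the lowest value of 3 against 1 at -3.61 and LUX the highest at 0.97. Between genotypes 0 genes of these lists were called by edgeR, with or without the block.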

How the data were processed

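The deposited files hold whole-number counts per gene for each library. Per the labels' protocols, RNA was extracted with Trizol and 500 ng went into Lexogen QuantSeq libraries, which read transcript ends. The submitters' processing notes name Bowtie2, bedtools and TAIR10, with versions and strand setting not given in the sources used here. Library sizes were normalised by TMM, and CPM values use those sizes. Genes were filtered with filterByExpr (minimum count 10, minimum total 15), fitted with edgeR 4.0.16 (glmQLFit, glmQLFTest; R 4.3.3) and adjusted by Benjamini-Hochberg over 20672 genes at 0.05. Genotypes were compared with genotype alone, numbers with genotype and number. SE is the log2 fold change divided by the root of F. Differences within numbers or genotypes are of log2(CPM + 1), and copy ratios were tested by exact permutation. A floor of 3 counts is 0.0867 to 0.131 CPM and covers counting error only.

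Libraries of the same number deviated together from their genotype means (r = 0.636 to 0.872 over 9 pairs, against -0.744 to 0.184 over 18 pairs with different numbers), so the numbers pair the libraries. With the replicate block, edgeR called 7 genes for atrzf1 against WT, 1 for pca31 against atrzf1 and 9 for pca31 against WT, where the fit without it called 0, 1 and 1 (115, 44 and 190 at an unadjusted p under 0.05). Alternatives were RLE size factors, library totals, no filter, DESeq2 1.42.0, limma-voom 3.58.1, the block, and leaving out libraries. The members and lists were chosen with earlier results of these data known. All 32 genes were named, with values by library for duplicated pairs, for the highest and lowest level in each role and for the highest and lowest log2 fold change in each contrast, and of each list the highest and lowest in number 3 against 1, plus GLK1, GLK2 and PSBS. Promoter windows were read with Python 3.11.15 and Biopython 1.88 from RefSeq TAIR10.1.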

Additional observations from a re-analysis of the deposited data

How the results depend on the processing

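Of 3392 log2 fold changes of the 32 genes under other settings, 3273 kept their side of the threshold, of which 3029 also kept their direction and 244 changed sign while not called in either fit. A further 101 lost a call, 18 gained one and 0 changed sign with a call. Between genotypes 0 of the 32 were called under every setting run except DESeq2 with the block, which called 1 (PSAG). The replicate block and the tools moved the count over all genes. For atrzf1 against WT (0 by edgeR without the block) it was 7 with the replicate block, 4 with DESeq2, 47 with DESeq2 and the block, 1 with limma-voom and the block, and 1 with the block and library totals. For pca31 against atrzf1 (1) it was 2 with DESeq2 and the block, and for pca31 against WT (1) it was 9 with the replicate block, 5 with DESeq2, 116 with DESeq2 and the block, 16 with limma-voom and the block, and 9 with the block and library totals. DESeq2 and limma-voom with the block, the block with library totals and leaving out the number 3 libraries were chosen after seeing the data. Leaving out number 3 gave 0 for pca31 against atrzf1 and 0 for pca31 against WT, and with the block 16 for atrzf1 against WT and 28 for pca31 against WT. The cause was not tested. Leaving out 1 library gave 0 to 1 for pca31 against atrzf1 and for pca31 against WT. For number 2 against 1 it gave 4 to 11 of the 32 and 1839 to 6259 of all genes, for 3 against 1 24 to 31 and 4356 to 7738, for 3 against 2 23 to 30 and 7800 to 10278, and for the balance of copies across numbers 2 to 7 of 8 pairs. Over all genes, calls were 2040 higher and 2498 lower in 2 against 1, 3232 and 3567 in 3 against 1, and 5334 and 4834 in 3 against 2, and with library totals 1454 and 2480, 5514 and 1966, and 8119 and 2792. With 1 library of each genotype per number, no genotype difference could be tested within a number. All 32 genes were above the counting floor in each library, with a lowest value of 37.6 CPM against a floor of at most 0.131 CPM. The number 3 libraries held 22478803 to 24090783 counts and the other 6 held 27712644 to 33073605. The part of depth in the differences between numbers was not tested.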
